A study of Mus musculus with 3 samples.

Results

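Gel-forming mucins and goblet cell products are here 10 genes, of 55357 in the deposited annotation, chosen by symbol: the mucins Muc5ac, Muc5b and Muc2, the mucus components and secreted goblet products Fcgbp, Clca1, Agr2, Tff1, Tff2 and Itln1, and the transcription factor Spdef. They were followed in single-cell RNA of nasal mucosa from C57BL/6 mice (C57BL/6J in the sample labels), in a model that the series text calls eosinophilic chronic sinusitis. In the papain + lonidamine group, intranasal papain (20 µg), an allergenic protease from papaya, was combined with gavage of lonidamine (10 mg/kg), which blocks glycolysis and lactate export. In the papain group the same intranasal dose of 20 µg came with gavage of PBS. The PBS group had intranasal PBS, and no gavage is described for it. Each group held mice of both sexes in equal parts, and the tissue of all its mice was pooled, so each group is 1 library and differences between libraries have no replicate check. The ages and numbers of mice are not given in the sources used here. One label field of the papain sample reads "Fibroblast", but fibroblast-gated cells were 460 of its 10524 kept cells.

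After quality filters, 11887 cells were kept in the papain + lonidamine library, 10524 in the papain library and 9378 in the PBS library. They held 84998730, 82918339 and 79971740 unique molecular identifiers (UMIs, each a counted RNA molecule), with medians per cell of 5823, 6547 and 7352.5 in the same order. The libraries stood apart in ways that the treatment labels do not describe. Ribosomal 18S RNA took 3.52% and 3.66% of UMIs in the papain + lonidamine and papain libraries and 0.878% in the PBS library. Of cells whose sex could be read from Xist or Y-linked UMIs, 83.1%, 73.2% and 56.8% were female in the papain + lonidamine, papain and PBS libraries, although the series text gives equal numbers of mice. A cell with Xist but no Y-linked UMI was called female, the reverse male, and all others stayed unassigned. Female and male cells numbered 7760 and 1580, 5746 and 2109, and 3877 and 2948 in the same order. Free RNA was not removed, and its part in these calls was not tested. Any pair of libraries shared at most 35 cell barcodes. All intervals below are 95% intervals for counting error only, exact Poisson for a level, conditional binomial for a ratio and Clopper-Pearson for a share of cells, and they do not cover variation between mice.

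Mucus is built on gel-forming mucins, very large glycoproteins that polymerise through disulfide bonds and are packed dehydrated into granules. In airways, MUC5B and MUC5AC are the main gel formers, and MUC2 is best known from the intestine. Around them goblet cells secrete the mucin-binding protein FCGBP, the metalloprotease CLCA1, the trefoil peptides TFF1 and TFF2 and the sugar-binding intelectin. AGR2 is a disulfide isomerase of the endoplasmic reticulum needed for mucin folding, and SPDEF is a transcription factor that drives goblet differentiation. In the airway this programme is known to be induced by interleukin-13 through STAT6.

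The sequences before the transcription starts are shown for the members that the RefSeq promoter table holds, because these genes were higher together after papain. The table (build GRCm38.p6, not the build of the counts) held 5 of the 10 members. Each line gives 100 bases, 5′ to 3′ on the gene's strand and ending at the base before the annotated start. Capitals mark the letters ATAA where the whole word lies within the window from 40 to 20 bases before the start.
Muc2, chr7:141690240-141690339, plus strand: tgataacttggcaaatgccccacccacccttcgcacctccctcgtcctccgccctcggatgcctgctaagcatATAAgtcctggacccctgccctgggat
Fcgbp, chr7:28071136-28071235, plus strand: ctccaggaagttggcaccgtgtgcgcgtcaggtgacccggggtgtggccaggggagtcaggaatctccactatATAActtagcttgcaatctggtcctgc
Agr2, chr12:35992825-35992924, plus strand: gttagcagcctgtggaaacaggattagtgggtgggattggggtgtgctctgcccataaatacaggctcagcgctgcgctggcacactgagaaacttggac
Itln1, chr1:171535295-171535394, minus strand: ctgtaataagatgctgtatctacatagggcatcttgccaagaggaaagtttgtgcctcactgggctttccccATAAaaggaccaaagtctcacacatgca
Spdef, chr17:27728952-27729051, minus strand: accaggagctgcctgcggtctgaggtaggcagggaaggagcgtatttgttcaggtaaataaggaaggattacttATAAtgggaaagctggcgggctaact
The letters ATAA lay in that window in 4 of the 5, starting 26 to 28 bases before the start, and in 7.53% of all 32851 promoters of the table on the gene's strand. This word was picked after the sequences were seen, so the count is a description. The planned motifs, searched on both strands in the 250 bases before to 50 after the start, were TTC and GAA with any 4 bases between (STAT6) or any 3 bases between (other STAT), TGTTTAC (forkhead) and CCGGAT (SPDEF core). In that order they were found in 6.95%, 8.30%, 3.65% and 6.04% of all promoters and in 0 of the 5 members' windows. Several members are neighbours in the same assembly: Muc6, Muc2, Muc5ac and Muc5b stand in that order on chromosome 7, and Tff3, Tff2 and Tff1 on chromosome 17.

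The first question is what papain did to the mucus genes of the nose as a whole. All 10 members were at least 2-fold higher in the papain library than in the PBS library, where 11.3% of the 25014 genes with at least 10 UMIs were. Their median log2 ratio of CPM (counts per 1000000 UMIs, with 0.5 counts added to each sum) was 3.51, and the median of all genes was −0.01. These library sums combine the number of cells of a type with the RNA in each of them, which a sum alone does not separate. The make-up of the libraries moved with them. Cells gated as mature olfactory neurons were 12.8% of kept cells with papain and 30.8% with PBS, and the shares of gated fibroblasts and olfactory ensheathing glia were 3.15-fold and 6.92-fold larger with papain. The part of this in the sums was not tested. Without the cells of the Alox12e Gp2 cluster, an alternative chosen after seeing the data, the ratio of papain over PBS was 5.84 for Muc5ac, 2.93 for Fcgbp and 0.97 for Agr2, which was then below 2-fold.

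Muc5ac, the inducible airway gel former, had 11566 UMIs (136 CPM) in the papain + lonidamine library, 12290 UMIs (148 CPM) in the papain library and 106 UMIs (1.33 CPM) in the PBS library. Its log2 ratio of papain over PBS was 6.80 (6.53 to 7.09), with 6.71 (6.38 to 7.08) in female and 4.75 (4.23 to 5.38) in male cells. The gene was concentrated in few cells: the 10 highest held 40.1%, 36.5% and 68.9% of its UMIs in the 3 libraries, and a single cell carried up to 734, 808 and 37 UMIs. Muc5b, the constitutive airway gel former, had 565 CPM with papain + lonidamine, 346 CPM with papain and 151 CPM with PBS. Its papain over PBS ratio, 1.20 (1.17 to 1.23), was far below that of Muc5ac, and the PBS library held 12043 UMIs of it. Muc2 had 220 CPM with papain + lonidamine, 183 CPM with papain and 23.8 CPM with PBS, a papain over PBS ratio of 2.94 (2.87 to 3.01), with 3.54 in female and 2.37 in male cells. Both papain-treated libraries stood above the PBS library for each of these mucins.

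**Figure D1:**
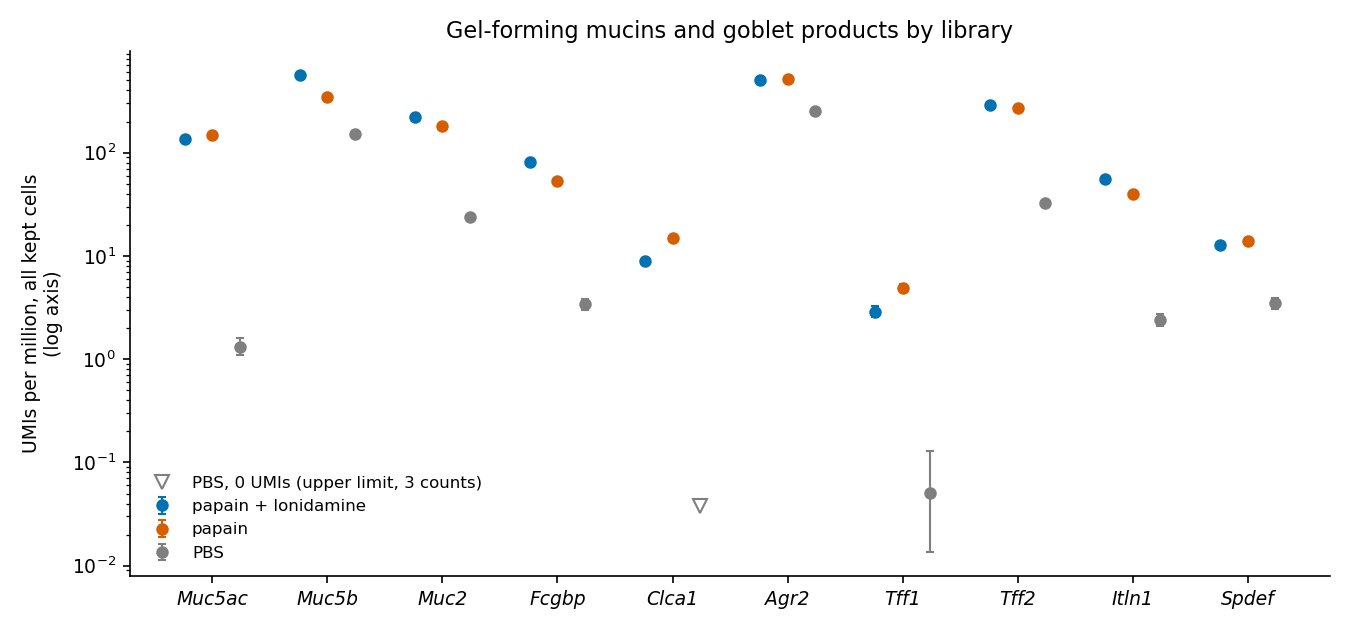
CPM over all kept cells (log axis) for the 10 genes in the papain + lonidamine, papain and PBS libraries; bars are 95% Poisson intervals and the open triangle marks a gene with 0 UMIs at the limit of 3 counts. Every gene is lower in the PBS library than in both papain-treated libraries, and the distance is largest for Muc5ac, Clca1 and Tff1.

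Clca1 and Tff1 were the members that the PBS library hardly contained. Clca1 had 752 UMIs with papain + lonidamine, 1223 with papain and 0 with PBS, where 3 counts would be 0.0375 CPM, so its papain level of 14.7 CPM was at least 393-fold higher. Tff1 had 245 UMIs with papain + lonidamine, 406 with papain and 4 with PBS, and its papain over PBS ratio was 6.44 (5.25 to 8.5), or 7.22 without the barcode with most Tff1 UMIs in each library. Itln1, an intelectin, had 56 CPM with papain + lonidamine, 40.2 CPM with papain and 2.40 CPM with PBS (ratio 4.06, 3.86 to 4.28). Fcgbp had 80.8 CPM with papain + lonidamine, 53.0 CPM with papain and 3.41 CPM with PBS (3.96, 3.78 to 4.14). Tff2 had 288 CPM with papain + lonidamine, 270 CPM with papain and 32.5 CPM with PBS (3.06, 3.0 to 3.12). Several of these papain over PBS ratios also differed by sex. In male cells Fcgbp stood at 2.57 (2.26 to 2.90), against 4.34 in female cells, and Tff2 at 3.88 (3.75 to 4.03), against 2.64. Tff1 had 1 UMI with papain and 0 with PBS in male cells, so its ratio rests on female cells, at 6.71 (5.17 to 10.1). Clca1 had 52 UMIs with papain in male and 1029 in female cells.

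Spdef and Agr2 act inside the cell, on transcription and folding. Spdef had 12.7 CPM with papain + lonidamine, 14.1 CPM with papain and 3.46 CPM with PBS, a papain over PBS ratio of 2.02 (1.83 to 2.22). Agr2 had 509 CPM with papain + lonidamine, 520 CPM with papain and 254 CPM with PBS, a ratio of 1.04 (1.01 to 1.06), just inside the 2-fold line. Agr2 was also the member found in most cells: 22.8% of cells with papain + lonidamine, 23.9% with papain and 15.5% with PBS. In male cells alone its ratio was 0.68 (0.64 to 0.72).

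The share of kept cells with at least 1 UMI was at least 2-fold larger with papain than with PBS for 8 of the 10 members, against 8.43% of all genes; the exceptions were Muc5b and Agr2. Muc5ac was seen in 3.81% of cells with papain + lonidamine, 4.42% with papain and 0.448% with PBS. Single UMIs of abundant mucins also reached cells that should not make them. In mature olfactory neurons, with median depths of 6620, 7066 and 7515 UMIs, Muc5ac was seen in 1.71%, 2.45% and 0.104% of cells with papain + lonidamine, papain and PBS, and Muc5b in 12%, 9.49% and 4.36%. Over 6 non-epithelial types, these neurons included, the highest shares were 3.62%, 3.42% and 0.369% for Muc5ac and 14.4%, 9.98% and 7.01% for Muc5b. Shares at or below these highest values are read as background. In level, Muc5b stood at 49.0 CPM, 15.1 CPM and 19.2 CPM in the mature neurons. Its highest levels over the 6 types were 106.6 CPM, 72.4 CPM and 19.2 CPM. For most members the neurons' background followed the library. Of the 8 members with at least 10 UMIs there, 6 were at least 2-fold higher with papain than with PBS (background 13.2% of genes). Muc5b did not follow it, at 15.1 CPM with papain and 19.2 CPM with PBS. Muc5ac had 4.37 CPM in them with papain and 0.182 CPM with PBS. With every cell thinned to 2000 UMIs, the number of members with a 2-fold larger share was again 8.

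The next question is which cells carried these genes. Cells were sorted into types by marker genes, and, separately, into clusters built without the 10 members. The respiratory secretory gate held 519, 525 and 194 cells in the papain + lonidamine, papain and PBS libraries, or 4.37%, 4.99% and 2.07% of the kept cells. Of its 6 markers, Cyp2f2, Bpifa1, Lypd2, Gabrp and Bpifb1 were detected, and Scgb1a1 was listed at 0 UMIs in it in all 3 libraries. This gate was mixed: 37.6%, 40.2% and 33.0% of its cells fell in the cluster led by Bpifb1, Scgb3a1, Itln1 and Tff2, called the secretory cluster here, and 25.8%, 23.8% and 11.9% in the Alox12e Gp2 cluster. In the PBS library 40.7% of the gate fell in a basal cluster led by Lgr6 and Pthlh. The Alox12e Gp2 gate, for epithelial cells named by genes found in earlier results of these data, held 205 and 283 cells with papain + lonidamine and papain and 4 with PBS. Its cluster was wider, with 3.91% and 4.51% of kept cells in the papain-treated libraries and 0.341% with PBS. Summed markers of immune cells lay between 33.7 and 43.6 CPM in the secretory gate and at 47.8 and 41.7 CPM in the Alox12e Gp2 gate of the papain + lonidamine and papain libraries.

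**Figure D2:**
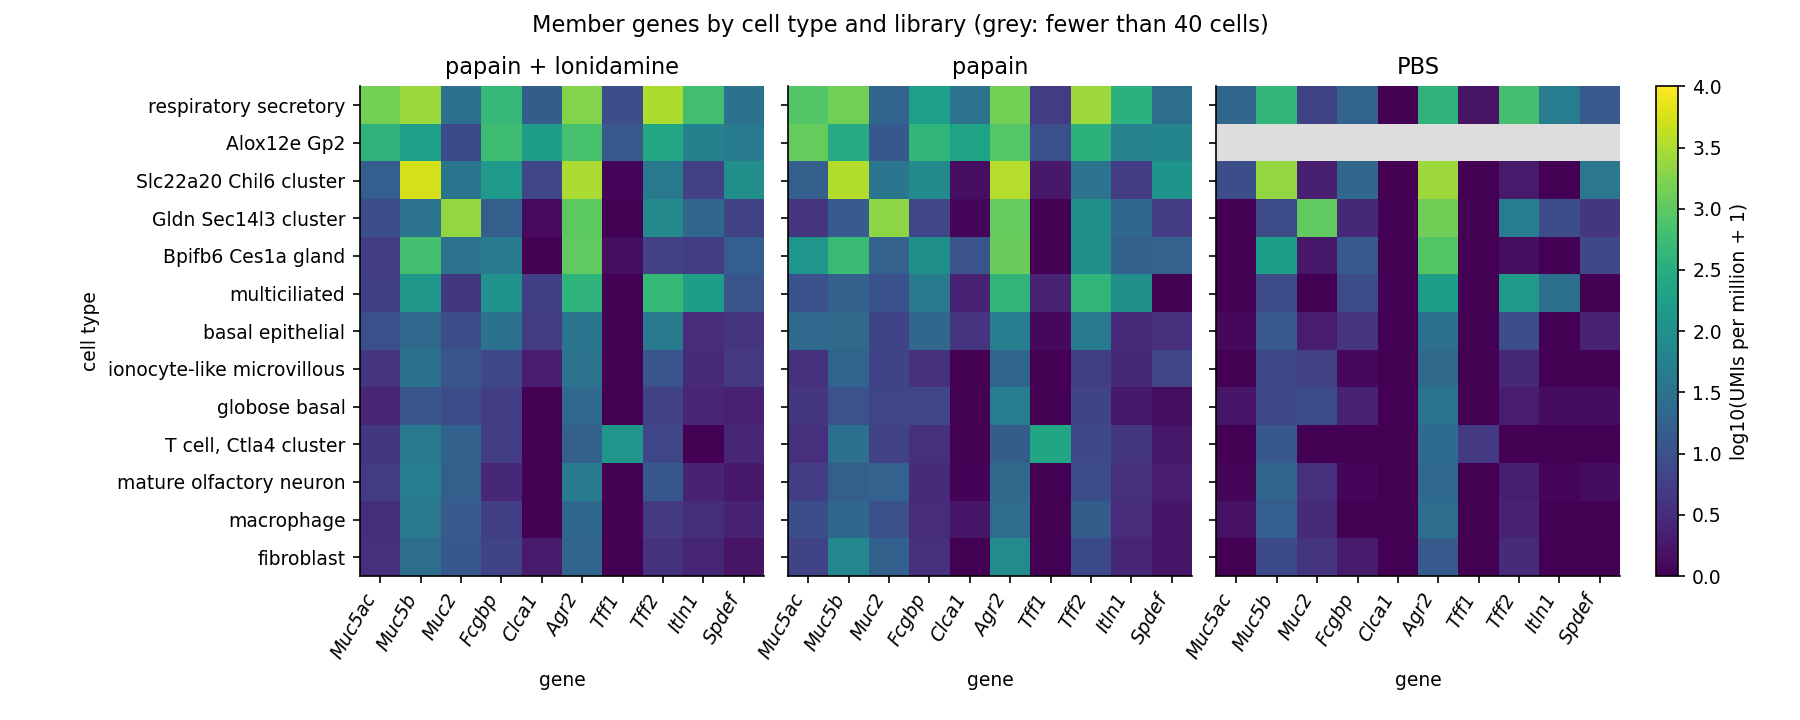
Level of each gene, as log10(CPM + 1), in 13 cell types (rows) of the papain + lonidamine, papain and PBS libraries (panels); grey marks types with fewer than 40 cells. In the papain-treated libraries Muc5ac, Muc5b, Tff2, Itln1 and Agr2 are bright in the secretory gate, and Tff1 in the T cell cluster. With PBS Muc5ac, Itln1 and Tff1 are dimmer there. Muc5b and Agr2 are also bright in the Slc22a20 Chil6 cluster, and Muc2 in the Gldn Sec14l3 cluster. With papain Muc5ac is brighter in the Alox12e Gp2 gate than in the secretory gate.

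Muc2 lay apart from the other gel-forming mucins, while Muc5b and Muc5ac shared the secretory cluster. Muc2 lay in a sustentacular cluster led by Muc2, Gldn and Sec14l3, whose markers are those of the supporting cells of the olfactory epithelium. That cluster held 645, 499 and 157 cells with papain + lonidamine, papain and PBS, and 89.5%, 88.3% and 85.9% of each library's Muc2 UMIs. Within it Muc2 stood at 2267 CPM with papain + lonidamine, 2122 CPM with papain and 1055 CPM with PBS, so the papain over PBS ratio per RNA was 1.01 (0.93 to 1.08), against 2.94 in all cells. The cluster's share of kept cells was 5.43% and 4.74% in the papain-treated libraries and 1.67% with PBS. Its cells had medians of 11286 and 12862 UMIs with papain + lonidamine and papain and 3297 with PBS, and the part of this in the result was not tested.

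Muc5b had its largest pool in a cluster led by Slc22a20, Chil6 and Cyp1a1. This cluster passed 5 of the 7 sustentacular markers, but none of them is among its 10 leading genes, so it is called by those genes. It held 415, 296 and 239 cells with papain + lonidamine, papain and PBS, and 62.0%, 55.8% and 79.2% of Muc5b UMIs. There Muc5b stood at 5436 CPM with papain + lonidamine, 3438 CPM with papain and 2248 CPM with PBS, a papain over PBS ratio of 0.61 (0.58 to 0.65). The second pool was the secretory cluster, with 29.5%, 28.1% and 9.13% of the UMIs and 4423 CPM with papain + lonidamine, 2309 CPM with papain and 934 CPM with PBS. In the barcode gate for sustentacular cells, which mixes both sustentacular-named clusters, Muc5b ran the other way: 1291 CPM with papain + lonidamine, 841 CPM with papain and 1450 CPM with PBS (papain over PBS −0.79).

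Muc5ac UMIs moved between clusters from library to library. The secretory cluster (199, 216 and 68 cells) held 79.7% of them with papain + lonidamine, 40.9% with papain and 56.6% with PBS. The Alox12e Gp2 cluster (465, 475 and 32 cells) held 12.9% with papain + lonidamine, 53.5% with papain and 1.89% with PBS. In the secretory cluster Muc5ac stood at 2879 CPM with papain + lonidamine, 1439 CPM with papain and 51.0 CPM with PBS, and 64.3%, 49.1% and 20.6% of cells had a UMI. The papain library alone therefore had most of its Muc5ac outside the secretory cluster.

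**Figure D3:**
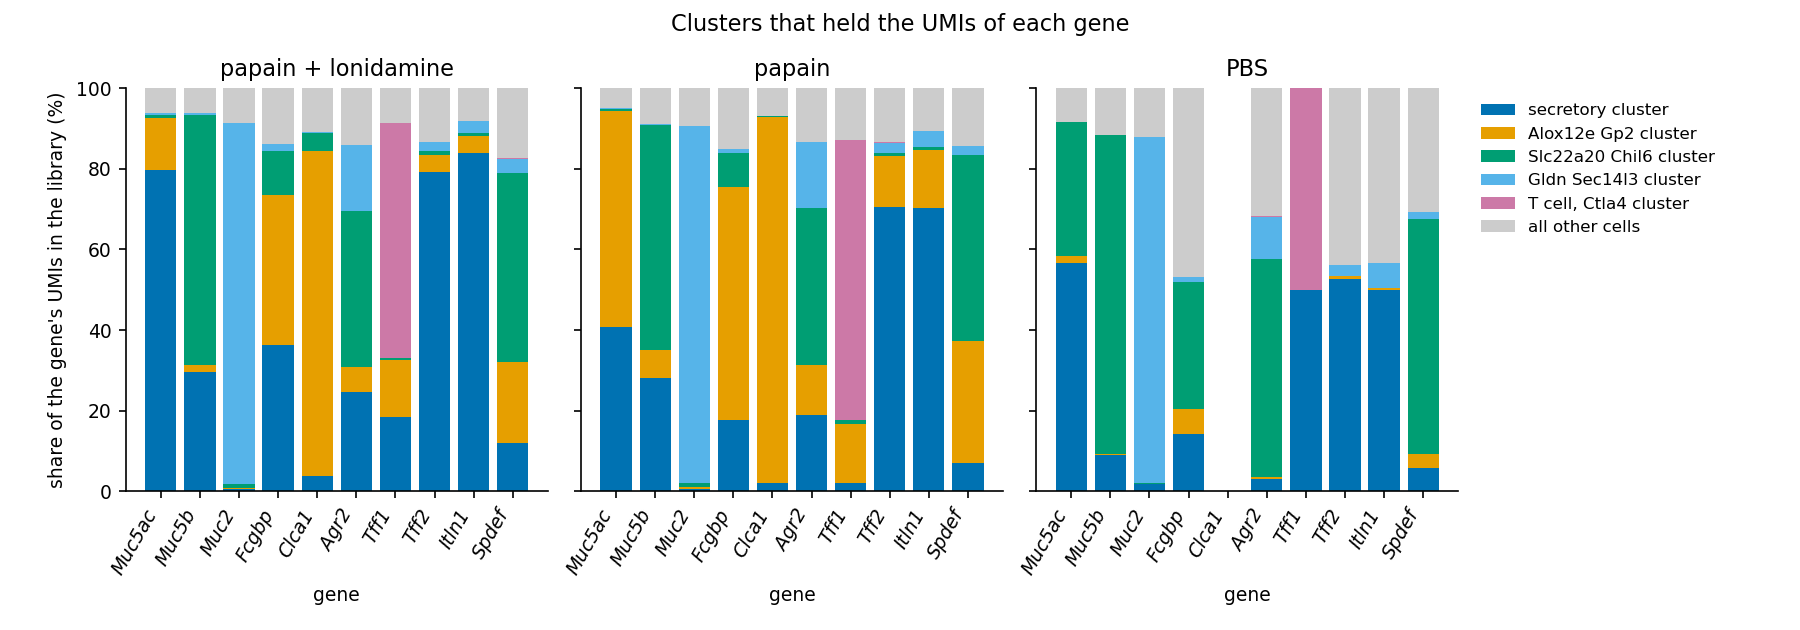
Share (%) of each gene's UMIs that lay in 5 named clusters and in all other cells, for the papain + lonidamine, papain and PBS libraries; Clca1 has no bar with PBS because it had 0 UMIs. The Alox12e Gp2 segment of Muc5ac is 12.9% with papain + lonidamine, 53.5% with papain and 1.89% with PBS, while the Muc2 bars are the Gldn Sec14l3 cluster in every library.

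Pairs of members were also counted in single cells with at least 5 UMIs of each gene, with the pairs and the minimum chosen after the data were seen. Of cells with Muc5ac at that level, 117 of 126 with papain + lonidamine, 131 of 143 with papain and 5 of 5 with PBS also had Muc5b. Tff2 went with Muc5ac in 110 of 126, 124 of 143 and 2 of 5 such cells. Few cells held both Muc5b and Muc2: 13 of 519 Muc5b cells with papain + lonidamine (2.50%), 7 of 422 with papain (1.66%) and 0 of 211 with PBS had Muc2. Of all kept cells, 5.33%, 4.34% and 0.693% had at least 5 Muc2 UMIs in the same order. A count of 0 in 211 allows a share of up to 1.42% at the limit of 3 counts (Clopper-Pearson upper bound 1.73%), which limits cells with that many UMIs and not cells expressing the gene. That limit lies above 0.693%, so the PBS count does not show that the 2 mucins lay apart. Clca1 cells carried Fcgbp in 28 of 35 with papain + lonidamine and 26 of 47 with papain, and Muc5ac in 15 of 35 and 30 of 47.

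Tff2 and Itln1 were concentrated in the secretory cluster. It held 79.3%, 70.6% and 52.8% of Tff2 UMIs and 83.9%, 70.3% and 50% of Itln1 UMIs with papain + lonidamine, papain and PBS. Tff2 stood there at 6063 CPM with papain + lonidamine, 4533 CPM with papain and 1164 CPM with PBS, and was seen in 99.5%, 98.6% and 97.1% of cells. Unlike Muc5ac, then, Tff2 was already in nearly all PBS cells of the cluster, at a lower level. A second pool of Tff2 was the basal cluster led by Lgr6 and Pthlh, with 6.58% and 7.09% of UMIs in the papain + lonidamine and papain libraries and 33.0% in the PBS library. Itln1 stood in the secretory cluster at 1248 CPM with papain + lonidamine, 671 CPM with papain and 81.6 CPM with PBS.

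Clca1 belonged to the Alox12e Gp2 cluster, which held 80.7% and 91.0% of its UMIs with papain + lonidamine and papain. Only 12.9% and 21.3% of that cluster's cells had a Clca1 UMI, and its level there was 98.5 CPM with papain + lonidamine and 159 CPM with papain. Fcgbp was divided: the Alox12e Gp2 cluster held 37.0%, 57.6% and 6.23% and the secretory cluster 36.4%, 17.8% and 14.3% of its UMIs with papain + lonidamine, papain and PBS. Reads that Fcgbp might share with its neighbour 9530053A07Rik could not be separated, and that gene had 62, 63 and 79 UMIs. In the Alox12e Gp2 cluster Fcgbp reached 69.9% of cells with papain + lonidamine and 63.4% with papain, against 34.4% of the 32 cells with PBS. Its level there was 413 CPM with papain + lonidamine, 362 CPM with papain and 29.3 CPM with PBS. In the secretory cluster it was 781 CPM with papain + lonidamine, 224 CPM with papain and 33.1 CPM with PBS, in 80.4%, 47.2% and 33.8% of cells. With papain + lonidamine Fcgbp was higher in the secretory than in the Alox12e Gp2 cluster, and with papain it was lower. Agr2 and Spdef had their largest pool in the Slc22a20 Chil6 cluster, with 38.7%, 38.9% and 54.2% of Agr2 UMIs and 46.9%, 46.1% and 58.1% of Spdef UMIs. Spdef stood there at 92.6 CPM with papain + lonidamine, 115 CPM with papain and 38.0 CPM with PBS. In the secretory cluster Spdef was lower than that, at 40.9 CPM, 23.2 CPM and 13.6 CPM.

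Within single gated types papain was compared with PBS where both libraries had at least 50 cells. In the secretory gate 10 of 10 members were at least 2-fold higher with papain (background 6.17% of genes), with a median log2 ratio of 2.18 against −0.20 for all genes. Muc5ac had 859 CPM there with papain and 19.9 CPM with PBS (5.42, 5.08 to 5.81), Fcgbp 183 CPM and 18.1 CPM (3.33, 2.97 to 3.74), and Agr2 1477 CPM and 399 CPM (1.89, 1.81 to 1.97). Tff1 rested on 28 UMIs with papain and 2 with PBS (2.42, 0.73 to 5.83). In the secretory cluster, which is less mixed, 7 of 10 were at least 2-fold higher (background 6.17%), with a median of 2.03 against −0.30 for all genes. The other three were Muc2 at −0.32 (−0.89 to 0.31), Tff1 at 0.20 (−1.89 to 3.70) and Spdef at 0.74 (−0.01 to 1.64). Over 6 gates, 33 of 47 pairs of member and gate with at least 10 UMIs were at least 2-fold higher. After the secretory gate came the Bpifb6 Ces1a gland gate with 8 of 9 (background 9.96%), the basal epithelial gate with 6 of 9 (9.27%), the ionocyte-like microvillous gate with 3 of 5 (7.66%), the globose basal gate with 3 of 6 (5.39%) and the sustentacular gate with 3 of 8 (15.2%). Many of these pairs hold few UMIs, such as 8 of Muc5ac with papain and 2 with PBS in the globose basal gate, and free RNA was not removed. In mature olfactory neurons, a background type, the same count was 6 of 8 (13.2%), so a high count alone does not show expression by a gate's own cells. Gland-gate cells had median depths of 6977 UMIs with papain and 24266 with PBS, and 1 papain cell held 66.7% of the gate's 33 Muc2 UMIs.

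The second question of the design is whether lonidamine changed the papain response. Over all kept cells no member differed 2-fold: 0 of 10 were 2-fold higher (background 3.95%) and 0 of 10 were 2-fold lower (background 3.08%) in the papain + lonidamine library than in the papain library. The median log2 ratio of the members was 0.03, equal to that of all genes, with 5 above and 5 below 0. Muc5b was highest at 0.70 (0.68 to 0.73) and Fcgbp next at 0.61 (0.55 to 0.66). Tff1 was lowest at −0.76 (−1.0 to −0.53) and Clca1 next at −0.74 (−0.87 to −0.61). Muc5ac stood at −0.12 (−0.16 to −0.09), Agr2 at −0.03 (−0.05 to −0.01) and Spdef at −0.14 (−0.26 to −0.02). Without the cells of the Alox12e Gp2 cluster, an alternative chosen after seeing the data, Muc5ac stood at 0.76, Clca1 at 0.34 and Fcgbp at 1.16.

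The near-zero sum for Muc5ac was made of opposite ratios in 2 types. In the secretory gate Muc5ac had 1479 CPM with papain + lonidamine and 859 CPM with papain, a log2 ratio of 0.78 (0.74 to 0.83). In the Alox12e Gp2 gate it had 392 CPM with papain + lonidamine and 1141 CPM with papain, a ratio of −1.54 (−1.64 to −1.44). Few cells lie behind this: the 3 highest held 19.1% and 35.5% of its UMIs in the secretory gate and 50.5% and 22.8% in the Alox12e Gp2 gate with papain + lonidamine and papain. Without the 3 highest cells of each library the ratios were 1.11 and −2.18, so both kept their sign. The difference between the gates has no test, because each library is 1 sample.

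Muc5b, Agr2 and Tff2 also had ratios of opposite sign in the 2 gates. In the secretory gate 9 of 10 stood above 0, with a median of 0.65 (all genes 0.08). One was 2-fold higher (background 3.71%), Fcgbp at 1.39 (1.30 to 1.49). In female cells of the gate Fcgbp stood at 0.98 (0.88 to 1.08), below 2-fold. One was 2-fold lower (background 2.66%), Clca1 at −1.22, where 1 papain cell held 71.4% of the papain gate's 231 UMIs and the ratio was 0.07 without the 3 highest cells. In the Alox12e Gp2 gate 8 of 10 stood below 0, with a median of −0.43 (all genes 0.08). Of the 8, Itln1, with 151 UMIs with papain + lonidamine and 238 with papain, lay almost at 0. Muc2 rested on 18 and 49 UMIs and stood at 0.25 (−0.87 to 1.31) without the 3 highest cells of each library. One was 2-fold lower (background 2.18%), Muc5ac, and 0 were 2-fold higher (background 5.34%). Muc5b stood at 0.78 in the secretory and −0.69 in the Alox12e Gp2 gate, Tff2 at 0.32 and −0.52, Agr2 at 0.30 and −0.36. Fcgbp, at 1.39 and 0.41, was above 0 in both. By clusters, all 10 stood above 0 in the secretory cluster (median 0.85, all genes 0.12), where Fcgbp, Tff1 and Muc5ac were at least 2-fold higher (background 4.29%). Of these, Tff1 rested on 45 and 8 UMIs, and Muc5ac lay on the 2-fold line (1.48 without the 3 highest cells). Clca1 there rested on 28 and 24 UMIs in 4 and 3 cells, and Muc2 stood at −0.18 (−0.82 to 0.44) without the 3 highest cells. In the Alox12e Gp2 cluster 9 of 10 stood below 0 (median −0.75, all genes 0.07), where Muc5ac, Tff2, Muc5b and Itln1 were at least 2-fold lower (background 2.47%). Without the 3 highest cells of each library Itln1 stood at −0.996 (−1.28 to −0.72), short of 2-fold, and Muc2 at 0.14 (−0.61 to 0.89). Muc5ac, Tff2 and Muc5b then stayed past 2-fold, at −2.32, −1.61 and −1.39.

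**Figure D4:**
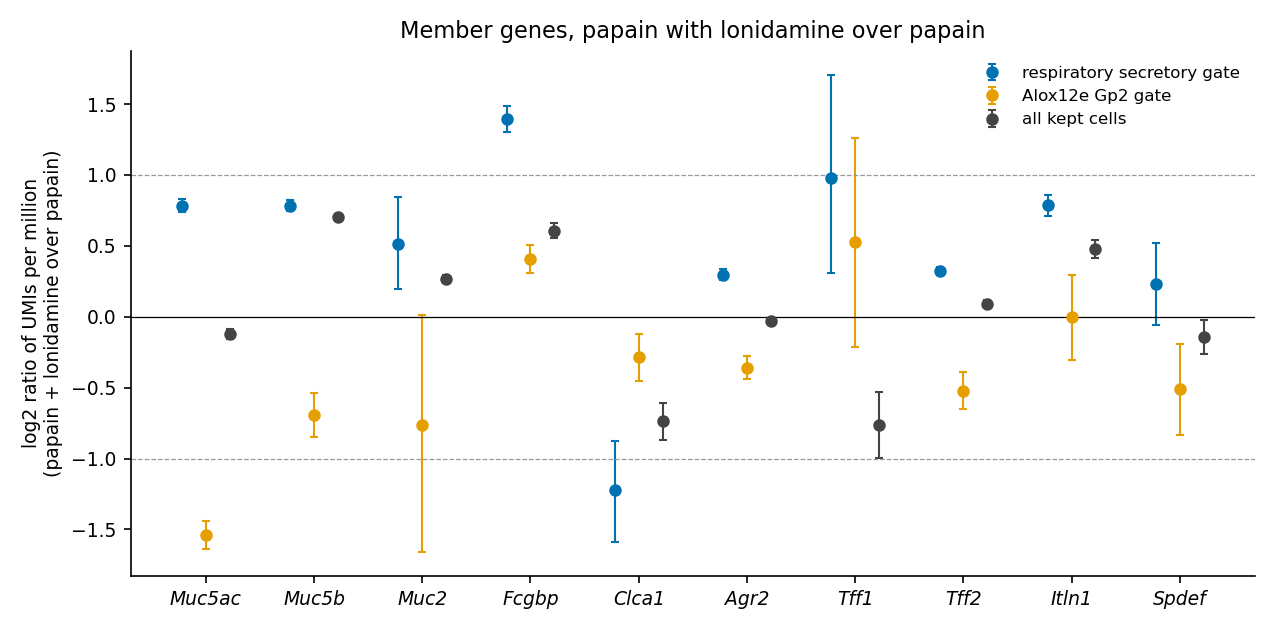
Log2 ratio of CPM, papain + lonidamine over papain, for the 10 genes in the respiratory secretory gate, the Alox12e Gp2 gate and all kept cells; bars are 95% counting intervals and dashed lines mark 2-fold. Muc5ac lies at 0.78 in the secretory gate, −1.54 in the Alox12e Gp2 gate and −0.12 in all cells. Above 0 are 9 of 10 genes in the first gate, and below 0 are 8 of 10 in the second, where Itln1 lies almost at 0.

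Sex moved with these ratios. The secretory gate held 435 female and 39 male cells with papain + lonidamine and 297 female and 133 male cells with papain, and the secretory cluster held 4 male cells of 199 with papain + lonidamine and 49 of 216 with papain. In female cells of the secretory gate Muc5ac stood at 0.43 (0.38 to 0.48), Muc5b at 1.06 (1.02 to 1.11), Tff2 at 0.29 (0.26 to 0.32) and Agr2 at 0.50 (0.45 to 0.54). In its male cells they stood at −5.40 (−8.77 to −3.86), −2.58 (−2.83 to −2.35), −2.68 (−2.91 to −2.47) and −2.18 (−2.40 to −1.97). Fcgbp ran the other way in male cells, with 172 CPM with papain + lonidamine and 50.6 CPM with papain (1.77, 1.35 to 2.18). Over all kept male cells Muc5ac had 35 UMIs with papain + lonidamine and 516 with papain (−3.28), Itln1 29 and 553 (−3.65), Tff2 280 and 4465 (−3.41) and Clca1 6 and 52 (−2.43), so 4 of 10 members were 2-fold lower (background 4.79%). Over all female cells 0 of 10 were 2-fold lower (background 3.78%) and Muc5b stood at 0.98. Male cells numbered 1580 with papain + lonidamine and 2109 with papain, 4 and 49 of them in the secretory cluster. The male ratios thus also carry a difference in cell make-up, whose part was not tested. Whether the mice that gave the male cells, this make-up or the drug set these values cannot be told apart with 1 pool per group. In the Alox12e Gp2 gate, where 96.1% and 92.6% of sexed cells were female with papain + lonidamine and papain, the female-only ratio of Muc5ac was −1.48 (−1.58 to −1.38).

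Of the large pools outside these gates, that of Muc2 differed little between the papain + lonidamine and papain libraries, and that of Muc5b differed by sex. In the Gldn Sec14l3 cluster Muc2 had a papain + lonidamine over papain ratio of 0.09 (0.06 to 0.13), with 0.08 in female and 0.24 in male cells. In the Slc22a20 Chil6 cluster Muc5b had a ratio of 0.66 (0.63 to 0.69), with 1.01 (0.97 to 1.04) in female and −0.33 (−0.38 to −0.27) in male cells. Agr2 was slightly lower in that cluster in both sexes, at −0.25 in female and −0.28 in male cells. In the Bpifb6 Ces1a gland gate Muc5ac had 11 UMIs with papain + lonidamine and 236 with papain (−4.80, −5.88 to −3.99) and Tff2 13 and 178 (−4.16, −5.15 to −3.40), against 0 and 2 UMIs with PBS. In the papain library 1 cell held 49.2% of that Muc5ac, and the highest cell for Tff2 held 33.7%. In the serous gland gate Muc5b had 559 UMIs in 55 cells with papain + lonidamine and 14 UMIs in 54 cells with papain, but 1 cell held 69.6% of the first sum. Over 9 gates, 9 of 65 pairs of member and gate with at least 10 UMIs were 2-fold lower with papain + lonidamine. The gland gate gave 5 of its 9 pairs (background 5.01%), and the secretory, Alox12e Gp2, basal epithelial (2.48%) and globose basal (2.13%) gates 1 each. The sustentacular (3.08%), serous gland (5.12%), ionocyte-like (2.87%) and tuft and Trpm5 microvillous (5.53%) gates gave 0.

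Tff1 did not keep to the epithelium. The largest share of its UMIs lay in a T cell cluster led by Ctla4, Tnfrsf4 and Trac, with 143 of 245 UMIs with papain + lonidamine, 282 of 406 with papain and 2 of 4 with PBS. The cluster held 325, 305 and 148 cells, of which 46, 55 and 1 had a Tff1 UMI. Of its sexed cells 93.7%, 87.5% and 55% were female. Tff1 stood there at 124 CPM with papain + lonidamine, 236 CPM with papain and 3.75 CPM with PBS, and at 14.0, 2.29 and 1.70 CPM in the secretory cluster. The papain + lonidamine over papain ratio in the T cell cluster was −0.92 (−1.23 to −0.63). Cells gated as mature olfactory neurons, a background type, had 0 Tff1 UMIs in each library, and the cluster of that name held 1 UMI with papain + lonidamine.

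The Tff1-positive T cells were set beside the other cells of the cluster with genes picked after the data were seen. Il17a, the cytokine of type 17 T cells, was found in 65.2% of the 46 Tff1-positive cells and 22.2% of the 279 others with papain + lonidamine, and in 78.2% of 55 and 20.8% of 250 with papain. Cd4 was found in 87.0% and 56.6% with papain + lonidamine and in 87.3% and 56.8% with papain. Foxp3, the factor of regulatory T cells, was found in 13.0% and 20.8% with papain + lonidamine and in 3.64% and 26.4% with papain. Tff1-positive cells were deeper, with median UMIs of 4515 and 2530 with papain + lonidamine and 4538 and 2930.5 with papain, and the part of depth in these shares was not tested. Epcam, an epithelial gene, was found in 10.9% and 6.81% with papain + lonidamine and in 9.09% and 12% with papain. For each of the other 9 members the cluster with most UMIs was epithelial in both papain-treated libraries.

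**Figure D5:**
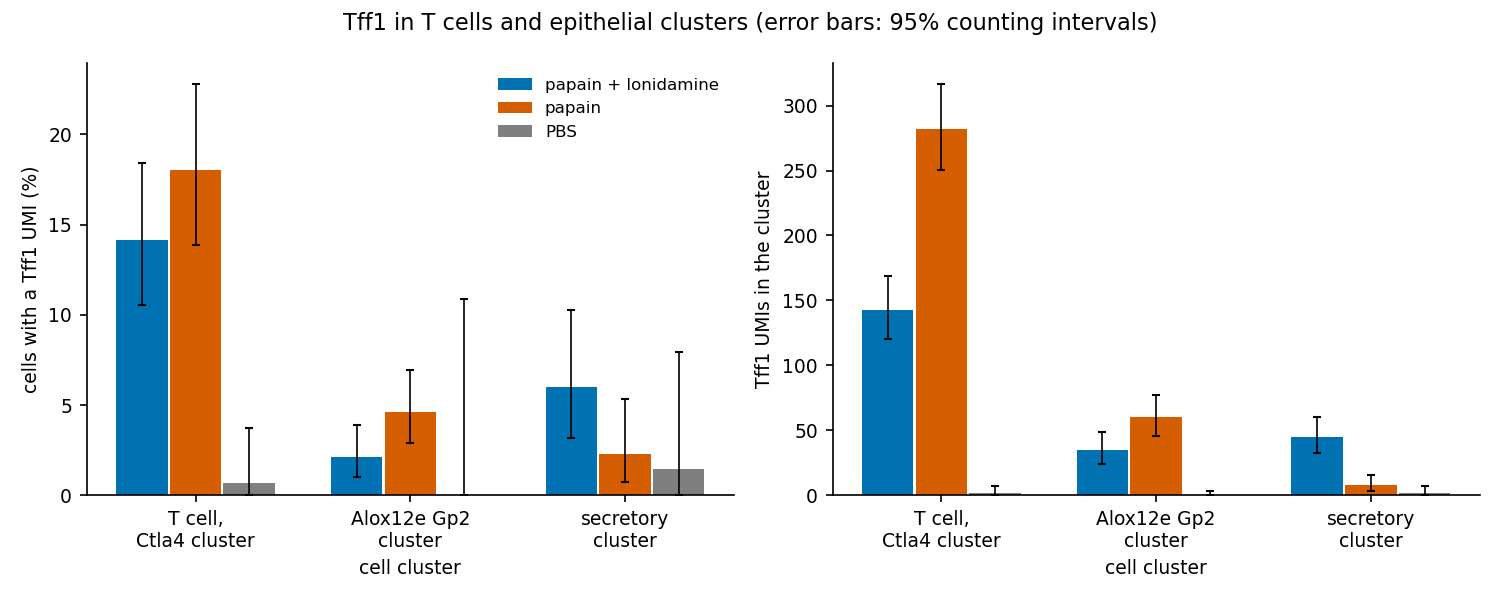
Left, share (%) of cells with a Tff1 UMI, and right, Tff1 UMIs, in the T cell cluster led by Ctla4, the Alox12e Gp2 cluster and the secretory cluster of the papain + lonidamine, papain and PBS libraries; error bars are 95% counting intervals. The T cell cluster has the most UMIs, 143 with papain + lonidamine, 282 with papain and 2 with PBS.

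Genes around the mucins were counted in 7 lists, of which 86 genes had at least 10 UMIs in the papain and PBS libraries together. With papain 35 of these 86 were at least 2-fold higher, beside 11.3% of all genes, and 1 was 2-fold lower, beside 6.78%. Among membrane mucins, which stay anchored at the cell surface, 5 of 8 were higher, including Muc4 (41.0 CPM with papain and 10.7 CPM with PBS, log2 ratio 1.93), Muc16 (70.2 and 20.5 CPM, 1.78) and Muc15 (2.29). Of enzymes that build mucin O-glycans, 7 of 22 were higher and 0 lower: St6galnac1, a sialyltransferase (2.76), Fut2, a fucosyltransferase (1.58), and the N-acetylglucosamine transferases B3gnt7 (1.52) and B3gnt3 (1.45) led. St6galnac2, which has 2 rows in the annotation, was left out. Of the mucin secretion machinery 3 of 17 were higher: the actin-severing Scin (1.84), the purine receptor P2ry2 (1.31) and Sytl4 (1.07).

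Of goblet transcription factors and folding genes 5 of 12 were higher. Ern2, the stress sensor of mucous epithelia, had 254 UMIs with papain and 6 with PBS (5.24, 4.21 to 6.81). Foxa3, a forkhead factor, had 81 UMIs with papain and 8 with PBS (3.21, 2.24 to 4.55), and Foxq1 (1.80) and Creb3l4 (1.79) were also higher. In the secretory gate 5 of 12 of this list were higher as well (background 6.17%), with Ern2 at 2.99, Creb3l4 at 2.1, Creb3l1 at 1.48 and Foxq1 at 1.13. Of the relatives of the goblet products 6 of 8 were higher, among them Clca3a2 (34.5 CPM with papain and 1.46 CPM with PBS, 4.56) and Pigr, the transporter of IgA (504 and 80.0 CPM, 2.65). Gp2 (3.46) is also a gate marker. In the secretory gate Clca3a2 had 408 UMIs with papain and 0 with PBS, at least 63.8-fold higher. The list's lower gene was Dmbt1, a scavenger protein that binds bacteria, with 13 UMIs with papain and 763 with PBS (−5.87, −6.84 to −5.14). Of the other secreted mucins 1 of 2 was higher, Muc19, on 21 UMIs with papain and 1 with PBS (3.79, 1.70 to 9.71).

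Of the ligands and receptors that feed goblet programmes 8 of 17 were higher with papain. Il13 had 488 UMIs with papain and 30 with PBS (3.95, 3.44 to 4.55), and its decoy receptor Il13ra2 had 73 and 18 (1.94, 1.21 to 2.80). Of EGF receptor ligands, Ereg (2.54) and Hbegf (1.88) led. In the secretory gate 1 of 12 of the ligands and receptors was higher (background 6.17%), with a median of 0.16 (all genes −0.20). Of the other lists, 1 of 6 membrane mucins (median 0.25) and 2 of 18 O-glycan enzymes (0.19) were higher there. The secretion machinery had 3 of 14 higher and 1 lower (−0.17), and the relatives of the goblet products 2 of 4 higher (1.59). Over all kept cells few genes of these lists differed 2-fold between papain + lonidamine and papain. Higher were 1 of 22 O-glycan enzymes, 1 of 17 ligands and receptors and 1 of 2 other secreted mucins (background 3.95%). Lower were 2 of 8 relatives of the goblet products (background 3.08%), and the remaining lists had none. Gcnt3, which makes core 2 and core 4 O-glycans, had 6.91 CPM with papain + lonidamine and 2.46 CPM with papain (1.49, 1.26 to 1.73). Ereg had 493 and 159 UMIs (1.59), and Clca3a2 had 15.7 and 34.5 CPM (−1.14, −1.24 to −1.05). Muc6 and Dmbt1, also past 2-fold, were under the 50 UMIs set for naming. List medians lay between −0.23 and 0.59, and that of all genes was 0.03.

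The genes most like the members were ranked by Pearson correlation of log2(CPM + 1) over 57 points, each a gated type in 1 library, from 23 types. The points share libraries and their depth, so the values are a description. Itln1 was most like Gm15848 (0.93), and Tff2 most like Serpinb11 (0.87), which was also second for Itln1. Clca1 was most like Mrgprg (0.94), a gene that also leads the Alox12e Gp2 cluster. Muc5ac was most like the secreted phospholipase gene Pla2g10 (0.87), Muc5b like the carboxylesterase gene Ces1f (0.84) and Muc2 like the sulfotransferase gene Gal3st2c (0.80). Fcgbp was most like the aldehyde dehydrogenase gene Aldh1a7 (0.86) and Spdef like the zinc transporter gene Slc39a2 (0.83). Tff1 was most like Fam124b (0.80) and next Izumo1r (0.78). Among the members themselves the closest pair was Tff2 and Itln1 (0.91).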

How the data were processed

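Single-cell 3′ libraries (10x Genomics) of nasal mucosa, digested with collagenases and Dispase, were deposited as unique molecular identifier (UMI) counts per gene and barcode, not normalized per the file headers. The headers name Cell Ranger 7.1.0, while the submitters' processing notes name Cell Ranger 2.1.1 and build GRCm39; the version that made the counts was not settled. One pooled library per group allows no test, so values carry counting error only.

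Barcodes needed 500 or more UMIs, 200 or more genes and no more than 20% mitochondrial UMIs, and doublets called by Scrublet per library (262, 188 and 137 cells with papain + lonidamine, papain and PBS) were removed. Totals of the kept cells are given in the report. Cells were gated by fixed marker lists (at least 3 markers, 2 for lists of up to 4, and a score lead of 0.05). They were also clustered with scanpy 1.11.5 and leidenalg 0.10.2 (2000 variable genes without the 10 members, 40 components, 20 neighbours, resolution 1), and cluster membership depends on the neighbour search. Ambient RNA was not removed. Sums were scaled to CPM, 0.5 counts were added for log2 ratios, and calls were made at 2-fold. Backgrounds are shares of genes with at least 10 UMIs. Gates were compared where both libraries had at least 50 cells. The ratio step was tested on simulated counts.

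The text names all members, up to 4 genes per list past 2-fold with at least 50 UMIs, and likeness genes by rank; the likeness of Agr2 is not reported here. Members and lists were chosen with earlier results of these data known. The gate thresholds, the use of single clusters, the co-detection pairs, the split by sex within gates, the removal of the 3 highest cells, the genes set beside Tff1 and the letters ATAA were chosen after seeing the data. Alternatives varied filters, doublets, scaling, fold, added count, sex and gating.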

Additional observations from a re-analysis of the deposited data

Results flagged for a closer look

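Muc5ac, Muc5b, Agr2 and Tff2 had papain + lonidamine over papain log2 ratios of opposite sign in 2 gates, with counting intervals that excluded 0. Muc5ac stood at 0.78 in the respiratory secretory gate and −1.54 in the Alox12e Gp2 gate. Muc5b stood at 0.78 and −0.69, Agr2 at 0.30 and −0.36, and Tff2 at 0.32 and −0.52 in the same gates. The difference was not tested, since each library is 1 sample, and the pair of gates was picked after the data were seen. Male cells were 39 of 519 with papain + lonidamine and 133 of 525 with papain in the secretory gate, and their part in the secretory ratios was not tested beyond the values by sex given above. In female cells alone Muc5ac kept both signs, at 0.43 in the secretory gate and −1.48 in the Alox12e Gp2 gate.

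Tff1 appeared outside the epithelium, in the T cell cluster led by Ctla4 and Tnfrsf4, at 124 CPM with papain + lonidamine and 236 CPM with papain. With PBS it stood at 3.75 CPM there, on 2 UMIs.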

How the results depend on the processing

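No paired analysis was possible because each group is 1 pooled library with no replicate numbers. The 10 members higher with papain than with PBS over all cells numbered 8 to 10 under every alternative. There were 8 at 4-fold and 9 without the Alox12e Gp2 cluster. In male cells 9 were higher, Tff1 among them on 1 UMI with papain and 0 with PBS. All 90 single ratios of papain over PBS kept their sign. The count lower with papain + lonidamine than with papain, 0 over all cells, was 2 at a fold of 1.5 (Clca1 and Tff1) and 4 in male cells only, and 0 under the other alternatives. Of 90 single ratios of papain + lonidamine over papain, 80 kept their sign. Signs changed in male cells for Muc5b, Agr2, Tff1, Tff2 and Itln1, in female cells for Muc2, and without the Alox12e Gp2 cluster for Muc5ac, Clca1, Agr2 and Spdef; the cause was not tested. Pairs of gate and member stood at 27 to 33 higher with papain, among 39 to 51 pairs (58.8% to 71.7%). With papain + lonidamine 6 to 12 were lower, among 56 to 75 pairs (9.68% to 16.0%). The share-based count was 8 throughout, and the list count was 50 at a fold of 1.5, against 35. No share of all genes is given for counts at other folds, papain over PBS in male cells or the alternative pair counts. Counting error is small for most members, but 1 library a group leaves variation between mice unmeasured. Tff1 with PBS rests on 4 UMIs, and Clca1 in the secretory gate on a single papain cell.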
